A study of Mus musculus with 12 samples.

Results

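The genes described here are 9 immediate early genes, Nr4a1, Nr4a2, Nr4a3, Egr1, Egr2, Egr3, Ier2, Ier3 and Rcan1, of 33188 genes measured in mouse kidney. Each was the single row of the expression table that carried its symbol. They were selected on their measured changes between the same 3 groups, so their values are given as a description and without p-values. RNA was measured in 12 strand-specific kidney libraries of wild-type mice, 4 in each of 3 groups. CTL was the control group and carried no agent named in the labels. HUA mice were made hyperuricemic, that is high in uric acid, by potassium oxonate (PO), which blocks uricase, and hypoxanthine (HX), from which the body makes uric acid. XZSW was, per its label and the study's design, that model under Xin-Zi-Sheng-Wan decoction, a preparation of traditional Chinese medicine. The sources used here do not give strain, sex, age, doses or times. Nor do they say whether the 4 libraries of a group are 4 animals, so the spread behind each test may be technical.

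Immediate early genes are transcribed within minutes of a signal reaching the cell, without new protein being made, and their RNA is short-lived. The signals run largely through the ERK cascade to the serum response factor and its partners, through cyclic AMP and calcium to CREB and MEF2, and through NF-kappa-B. The products are for the most part transcription factors or inhibitors of signalling that shape the later response. In the kidney they are known to be induced in tubule cells by ischemia and by toxins.

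Library totals ranged from 51.6 to 74.3 M counts, and all 9 genes were among the 19772 with enough counts to be tested. Levels are CPM, a gene's counts relative to its library's total, after TMM scaling, which corrects totals for composition. Changes are log2 values from edgeR's quasi-likelihood fit over the 12 libraries, with their standard error (SE), and a gene is said to have risen or fallen where its Benjamini-Hochberg adjusted p over all tested genes was under 0.05. The columns of the table were tied to HUA and XZSW through letters in the sample descriptions that do not abbreviate the group names; if these were exchanged, the HUA and XZSW values would be too. Relative to the CTL mean of each gene, log2 CPM was higher for genes of higher GC content in 5 libraries (XZSW3, XZSW4 and HUA2 to HUA4). Slopes there were 0.189 to 0.326 per 10% of GC, against -0.0965 to 0.049 in the other 7, which are called flat. Since CTL was the reference, its own slopes were bound to be near flat on average. A group difference tied to GC content would also enter these slopes. The 5 are called high-GC libraries, and the split was made after the data were seen. No CTL library was among them, so that in CTL comparisons kind and group cannot be told apart beyond HUA1, XZSW1 and XZSW2. Proximal tubule markers (7 genes) summed to 26726 to 33587 FPKM in CTL, 8012 to 18722 in HUA and 17627 to 20082 in XZSW, so kidney tubule RNA was present in every library. Most of this sum was the gene Kap, with means of 29059, 10268 and 17760.2 FPKM, where Slc34a1 had 608, 274 and 827. By edgeR, 6 of the 7 fell in HUA against CTL (median log2 change -1.50), beside 12.8% of all genes. In XZSW against HUA, 6 rose (median 1.12), beside 7.09% of all genes. In XZSW against CTL, 0 of the 7 were called, beside 4.99% of all genes.

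In HUA, 4 of the 9 genes rose against CTL (Egr1, Egr2, Ier2 and Ier3) and 1 fell (Nr4a2), beside 27.8% of all tested genes called in either direction (14.9% higher and 12.8% lower). In XZSW, 6 fell against HUA (Nr4a3, Egr1, Egr2, Ier2, Ier3 and Rcan1) and 0 rose, beside 15.4% of all genes (7.09% higher and 8.34% lower). Against CTL, XZSW had 2 that fell (Nr4a3 and Rcan1) and 0 that rose, beside 4.99% of all genes (2.72% higher and 2.27% lower). The CPM ranges of HUA and CTL did not overlap for 4 higher genes and 1 lower gene, beside 30.3% of all genes (15.1% higher and 15.2% lower). Those of XZSW and HUA did not overlap for 4 lower genes, beside 18.1% of all genes (8.98% higher and 9.08% lower). Those of XZSW and CTL did not overlap for 3 lower genes, beside 21.6% of all genes (10.3% higher and 11.3% lower). No member rose in either XZSW comparison by edgeR at an unadjusted p under 0.05, by DESeq2 or by limma. Nothing is read from these counts, since the same comparisons chose the members. The 6 calls in XZSW against HUA were 3 without XZSW2, 3 when only the 8 libraries compared were fitted and 0 among the high-GC libraries alone. Over all genes, calls were also fewer with the 8 libraries and with the high-GC libraries alone, and the totals are given at the end. Without the high-GC libraries, which leaves HUA1 alone in HUA, more members and more genes of all kinds were called in XZSW against CTL. The median log2 change of the 9 was 1.21 in HUA against CTL, -1.84 in XZSW against HUA and -0.52 in XZSW against CTL, where all tested genes had medians of 0.06, 0.01 and 0.04.

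**Figure D1:**
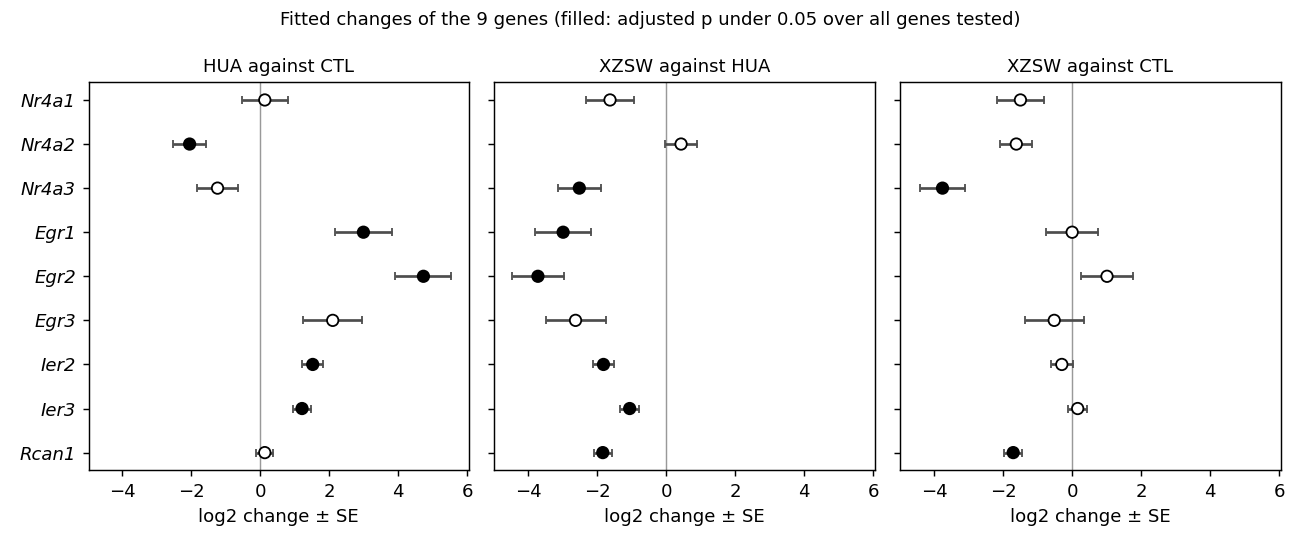
Fitted log2 change of each gene (x axis, with its SE as the bar) in the 3 comparisons; filled points passed an adjusted p under 0.05 over all genes tested. Egr2 had the highest value in HUA against CTL, 4.73, and Nr4a3 the lowest in XZSW against CTL, -3.76.

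EGR proteins are zinc finger transcription factors that bind a GC-rich site. Egr1 is the best known of them and is induced by growth factors and tissue injury. Its level was 20, 33.4, 18.8 and 15.9 CPM in CTL1 to CTL4. In HUA1 to HUA4 it was 290.1, 296, 46.7 and 66.9 CPM. In XZSW1 to XZSW4 it was 4.63, 4.32, 23.3 and 56.1 CPM. Every HUA library stood above every CTL library, and HUA1 and HUA2 were several times above HUA3 and HUA4. XZSW libraries fell on both sides of CTL, and XZSW4 stood above HUA3. The log2 change was 2.99 (SE 0.82, 7.94-fold) in HUA against CTL and -2.99 (SE 0.82) in XZSW against HUA, and 0.00 (SE 0.76) in XZSW against CTL. The call in XZSW against HUA was lost without HUA2 (-2.61), XZSW1 (-2.65), XZSW2 (-2.64) or XZSW3 (-3.02) or with only the 8 libraries compared (-2.98), and without XZSW4 the value was -4.02. In HUA against CTL the call was lost with the kind of library as a further term (2.53). XZSW against CTL was -2.27 and called lower without the 5 high-GC libraries.

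Egr2, also called Krox20, directs myelination and is a brake in activated T cells. The annotation has it on the plus strand of chromosome 10 at 67535475 to 67542188 (GRCm38). It was at 0.425, 0.298, 0.861 and 0.352 CPM in CTL1 to CTL4. HUA1 to HUA4 had 25.6, 15.2, 7.79 and 2.73 CPM. XZSW1 to XZSW4 had 0.242, 0.352, 1.18 and 2.13 CPM. HUA stood above both other groups in all 4 libraries, and XZSW overlapped CTL. Egr2 rose by 4.73 (SE 0.81, 26.6-fold) in HUA against CTL, the largest change among the 9, and fell by 3.72 (SE 0.76) in XZSW against HUA. Without XZSW4 the latter was -4.43. XZSW against CTL was 1.01 (SE 0.74), not called, and 0.30 without XZSW4. Of the 5 Egr2 start-site windows in the RefSeq promoter table (GRCm38.p6), the following one, chr10:67537619-67537868 (plus strand, the bases before the start), is shown because it holds letters of 2 of the routes named above. Capitals mark 1 CArG box, the motif of the serum response factor, and 2 matches to the CRE core TGACG, the motif of CREB. These are matches of letters, not measured binding.
Egr2: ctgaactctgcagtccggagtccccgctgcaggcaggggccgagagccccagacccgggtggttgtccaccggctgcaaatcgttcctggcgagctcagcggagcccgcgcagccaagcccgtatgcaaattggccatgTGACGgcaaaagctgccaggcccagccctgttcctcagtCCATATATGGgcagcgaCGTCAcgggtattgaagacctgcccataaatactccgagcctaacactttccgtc

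Across all 32851 promoter windows of that length, of 27025 genes, searched on both strands, a CArG box was found in 1.47% and the CRE core TGACG in 17.8%. At least 1 window each of Nr4a1, Nr4a2, Nr4a3, Egr2 and Rcan1 held the CRE core, and the window of Ier3 did not. Egr2 had 5 windows, some overlapping, and Rcan1 had 2, and not all of these held it. Genes with the core thus cannot be set directly against a share of windows. RefSeq windows were used for 6 of the 9 genes. Egr3 and Ier2 had none to use, Egr1 was left out by choice, and these genes are named only.

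Egr3, which works in muscle spindles and lymphocytes, is on the plus strand of chromosome 14 at 70077203 to 70082614. Its CTL libraries held 0.629, 0.635, 0.904 and 0.101 CPM. Its HUA libraries held 5.08, 3.01, 1.24 and 0.399 CPM. Its XZSW libraries held 0.185, 0.245, 0.117 and 1.03 CPM. HUA4 lay within the CTL range and XZSW4 above HUA4, and no change of Egr3 passed the threshold, with log2 changes of 2.10 (SE 0.85), -2.63 (SE 0.87) and -0.52 (SE 0.85) in the 3 comparisons. HUA against CTL passed without HUA4 (2.49) and was 1.49 without HUA1. XZSW against HUA passed without HUA4 (-2.99) or XZSW4 (-3.73) and was -1.99 without HUA1. Against CTL, XZSW was at -1.62 without XZSW4. By DESeq2, and with library totals in place of TMM, Egr3 passed in HUA against CTL (2.12 and 2.42) and in XZSW against HUA (-2.63 and -2.78).

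The fourth EGR gene, Egr4, fell below the filter and is a member of the wider list below. It had 0 counts in the 4 CTL and the 4 XZSW libraries. In HUA it had 105 counts, of which HUA1 gave 32, HUA2 69, HUA3 0 and HUA4 4. Egr4 was thus at least 24.4-fold higher in HUA than CTL and at least 30.5-fold lower in XZSW than HUA, with a floor of 3 counts over a group. Among the cofactors that bind and restrain EGR proteins, Nab2 rose in HUA against CTL, with a log2 change of 1.67 (SE 0.31, adjusted p = 0.00192 by edgeR), from 10.1 ± 1.19 to 32.2 ± 16.8 CPM (SD, n = 4), while its XZSW value of 16.9 ± 3.04 CPM was not called against HUA (adjusted p = 0.0577). Neither Nab1 nor Nab2 was called by edgeR in the comparisons of XZSW, where DESeq2 called 1 of the 2 lower in each. In XZSW against HUA edgeR called 1 without HUA3 and 2 without HUA4, and in XZSW against CTL 1 without HUA4.

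IER2 and IER3 are small proteins of the primary response. IER3 (also IEX-1) is known to act on ERK signalling and cell survival and is induced through NF-kappa-B. Ier2 (chr8:84661331-84662854, minus strand) was at 13.3, 17.8, 10.9 and 16 CPM in CTL1 to CTL4. The HUA libraries had 46.8, 61.3, 31.9 and 25.6 CPM. The XZSW libraries had 8.19, 8.98, 10.7 and 19.1 CPM. All HUA libraries were above all others, and XZSW and CTL overlapped. Ier2 rose by 1.52 (SE 0.31, 2.86-fold) in HUA against CTL and fell by 1.82 (SE 0.31) in XZSW against HUA; XZSW against CTL was at -0.30 (SE 0.31) and was not called.

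Ier3 (chr17:35821684-35822923, plus strand) held 34, 35.4, 42.6 and 32 CPM in CTL1 to CTL4. HUA1 to HUA4 gave 103, 87.4, 73.8 and 68.7 CPM. XZSW1 to XZSW4 gave 19.6, 36.6, 41.7 and 62.4 CPM. HUA stood above all CTL and XZSW libraries, and its highest HUA library was 1.5 times its lowest, the smallest such ratio of the 9 genes, where Nr4a3 had 15.1. Ier3 rose by 1.21 (SE 0.27) in HUA against CTL and fell by 1.06 (SE 0.27) in XZSW against HUA, a call lost without XZSW2 (-1.01) or with only the 8 libraries compared. XZSW against CTL was 0.16 (SE 0.27). The stretch before its start, chr17:35821463-35821683, is shown for the kappa-B match in capitals; a kappa-B match was in 3.9% of all windows.
Ier3: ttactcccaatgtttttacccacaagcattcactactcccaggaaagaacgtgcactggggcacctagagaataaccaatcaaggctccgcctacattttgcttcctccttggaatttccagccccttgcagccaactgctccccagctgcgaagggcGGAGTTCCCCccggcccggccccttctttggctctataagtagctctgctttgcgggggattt

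NR4A proteins are orphan nuclear receptors that act without a known ligand. Nr4a1 (Nur77) and its relatives are induced in many cells by CREB and MEF2. Nr4a1 (chr15:101254269-101274795, plus strand) was at 64.9, 89.2, 95.8 and 50.7 CPM in CTL1 to CTL4. In HUA1 to HUA4 it was at 110.5, 160.0, 25.8 and 32.7 CPM. In XZSW1 to XZSW4 it was at 8.06, 6.5, 34.3 and 57.4 CPM. HUA1 and HUA2 stood above all CTL libraries and HUA3 and HUA4 below them, so that the group values spread 6.2-fold. XZSW was below CTL except for XZSW4, which lay within the CTL range. No change of Nr4a1 passed, with 0.13 (SE 0.67), -1.63 (SE 0.69) and -1.50 (SE 0.69) in the 3 comparisons. XZSW against HUA was -2.34 and XZSW against CTL -2.21 without XZSW4, and both passed without the 5 high-GC libraries (-3.90 and -3.34). The RefSeq window chr15:101266596-101266845 is shown with 4 CRE cores and 1 EGR site (GCGGGGGCG, written on its other strand) in capitals; the EGR site, as that sequence or GCGTGGGCG, was in 3.06% of all windows.
Nr4a1: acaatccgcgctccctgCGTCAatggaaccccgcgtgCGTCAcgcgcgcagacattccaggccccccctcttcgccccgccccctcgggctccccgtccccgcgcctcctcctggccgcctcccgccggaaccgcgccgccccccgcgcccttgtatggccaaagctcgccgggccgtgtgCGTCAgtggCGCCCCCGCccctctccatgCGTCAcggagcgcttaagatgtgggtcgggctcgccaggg

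Nr4a2 (Nurr1), which dopamine neurons need, was the only member that fell in HUA. Its CTL libraries had 5.24, 8.57, 7.11 and 6.47 CPM. Its HUA libraries had 2.4, 1.48, 1.89 and 0.827 CPM. Its XZSW libraries had 1.68, 0.935, 1.49 and 4.79 CPM. All HUA and all XZSW libraries were below CTL on the CPM scale, though on FPKM values the XZSW and CTL ranges overlapped. Nr4a2 (chr2:57106830-57124003, minus strand) fell by 2.05 (SE 0.47, 4.14-fold) in HUA against CTL, whereas XZSW against HUA was 0.43 (SE 0.46). XZSW against CTL, at -1.62 (SE 0.46), was not called by edgeR, passed by DESeq2 (-1.62), and passed without XZSW4 (-2.32), a removal that also moved XZSW against HUA to -0.27. Its window chr2:57124004-57124253 (minus strand) holds 4 CRE cores and 1 MEF2 site in capitals; the MEF2 site was in 2.92% of windows.
Nr4a2: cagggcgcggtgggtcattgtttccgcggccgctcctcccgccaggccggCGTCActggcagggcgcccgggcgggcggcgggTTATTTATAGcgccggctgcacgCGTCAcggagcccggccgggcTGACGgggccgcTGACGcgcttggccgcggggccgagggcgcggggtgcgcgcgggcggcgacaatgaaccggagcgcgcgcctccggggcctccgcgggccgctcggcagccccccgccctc

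Nr4a3 (Nor1; chr4:48045153-48086445, plus strand) had 11, 11.2, 6.91 and 6.87 CPM in CTL1 to CTL4. HUA1 to HUA4 had 9.57, 3.42, 1.63 and 0.635 CPM. XZSW1 to XZSW4 had 0.769, 0.567, 0.539 and 0.779 CPM. The XZSW libraries differed little among themselves and lay far below CTL, while HUA ran from within the CTL range to within the XZSW range. Nr4a3 fell by 3.76 (SE 0.65, 13.5-fold) in XZSW against CTL and by 2.52 (SE 0.62) in XZSW against HUA. The latter was -1.52 without HUA1 and was not called without XZSW2 (-2.45), with only the 8 libraries compared (-2.52) or by limma on log2(FPKM + 1) (-0.49) or log2(FPKM + 0.1) (-1.45). HUA against CTL was -1.24 (SE 0.59), not called, and was -2.21 and called without HUA1. The 98 bases of its window that lie outside exons, chr4:48045055-48045152 (plus strand), hold 3 CRE cores in capitals, of 4 in the whole window.
Nr4a3: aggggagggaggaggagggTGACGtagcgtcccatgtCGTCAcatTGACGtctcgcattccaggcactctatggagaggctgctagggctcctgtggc

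RXR proteins pair with NR4A1 and NR4A2. Of Rxra, Rxrb and Rxrg, Rxra fell in HUA against CTL with a log2 change of -0.53 (SE 0.16, adjusted p = 0.0267 by edgeR). The call was lost by limma and without CTL1, CTL3, CTL4, HUA3 or HUA4. None of the 3 passed in the other comparisons by edgeR, DESeq2 or limma, or at an unadjusted p under 0.05.

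RCAN1 binds and inhibits calcineurin, the calcium-dependent phosphatase that activates NFAT, and its own shorter transcript is induced by NFAT. Rcan1 (chr16:92391953-92470867, minus strand, overlapped on the other strand by the antisense gene Gm46555 without a shared exon) was the most abundant member per length in CTL. It held 222, 216, 174 and 284 CPM in CTL1 to CTL4. HUA1 to HUA4 held 396, 217, 158 and 211 CPM. XZSW1 to XZSW4 held 77.2, 80.2, 62.9 and 53.9 CPM. CTL and HUA overlapped and XZSW was below both in all 4 libraries, with XZSW4 the lowest of them, where for the other 8 genes it was the highest. Rcan1 fell by 1.84 (SE 0.26, 3.58-fold) in XZSW against HUA and by 1.71 (SE 0.26, 3.27-fold) in XZSW against CTL, and HUA against CTL was 0.13 (SE 0.25). The window of its start nearer the end of the gene, chr16:92400079-92400328 (minus strand), is shown for 3 NFAT cores (GGAAA, in 55.6% of windows) and 1 full CRE (TGACGTCA, in 1.55%, which contains the CRE core on each strand) in capitals. The window of its other start, chr16:92466170-92466419, held none of the motifs named here and no TATAAA.
Rcan1: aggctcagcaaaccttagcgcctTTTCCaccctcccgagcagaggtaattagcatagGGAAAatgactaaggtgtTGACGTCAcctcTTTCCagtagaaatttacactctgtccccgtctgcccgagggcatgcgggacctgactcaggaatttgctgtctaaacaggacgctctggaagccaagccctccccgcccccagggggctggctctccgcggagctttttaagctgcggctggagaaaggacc

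Of 13 tested genes of calcineurin and NFAT, 4 rose in HUA against CTL (Nfatc2, Nfatc4, Nfat5 and Cabin1) and 2 fell (Ppp3r1 and Akap5), beside 27.8% of all genes called. The 6 calls were 3 without CTL3 or CTL4, and limma called 7 higher and 0 lower. In XZSW against HUA, 1 rose (Akap5, with a log2 change of 1.89, SE 0.46, adjusted p = 0.0168 by edgeR) and 0 fell, beside 15.4% of all genes. At an unadjusted p under 0.05, 2 rose and 2 fell, by DESeq2 2 rose and 1 fell, and by limma 0 rose and 3 fell. The edgeR count was 0 without XZSW2 and 2 without HUA2. Nfat5, the osmotic stress factor of the kidney, had a log2 change of 1.12 (SE 0.25, adjusted p = 0.00564 by edgeR) in HUA against CTL. The calcineurin subunits Ppp3cb and Ppp3r1 fell in XZSW against CTL, with log2 changes of -0.58 (SE 0.13) and -0.64 (SE 0.12). Both calls were lost without CTL2, CTL3 or XZSW3, 1 of them without CTL1, CTL4, XZSW1 or XZSW4, and limma called 0 lower. The median log2 change of the list was 0.23 in HUA against CTL and -0.26 in XZSW against HUA, where all genes had 0.06 and 0.01.

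Per length, in FPKM, the order of the genes differed between groups. In CTL, the group means ran from Rcan1 (57.5), Ier3 (25.2), Nr4a1 (16.9), Ier2 (7.48), Egr1 (3.84), Nr4a2 (1.33) and Nr4a3 (1.18) down to Egr2 (0.111) and Egr3 (0.0984). The neighbours Nr4a2 and Nr4a3 overlapped there, as did Egr2 and Egr3, and the other neighbours did not. In HUA, Rcan1 (79.9) and Ier3 (74.1) led, followed by Egr1 (39), Ier2 (27.3) and Nr4a1 (23.4), and Egr2 (3.78) stood above Nr4a3 (0.637), Egr3 (0.551) and Nr4a2 (0.407). In XZSW, Ier3 (32.9) and Rcan1 (20.5) led and Nr4a3 (0.101) and Egr3 (0.0826) were lowest. Egr1 was below Nr4a1 and Ier2 in CTL and above both by its mean in HUA, where the ranges of the 3 genes overlapped.

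**Figure D2:**
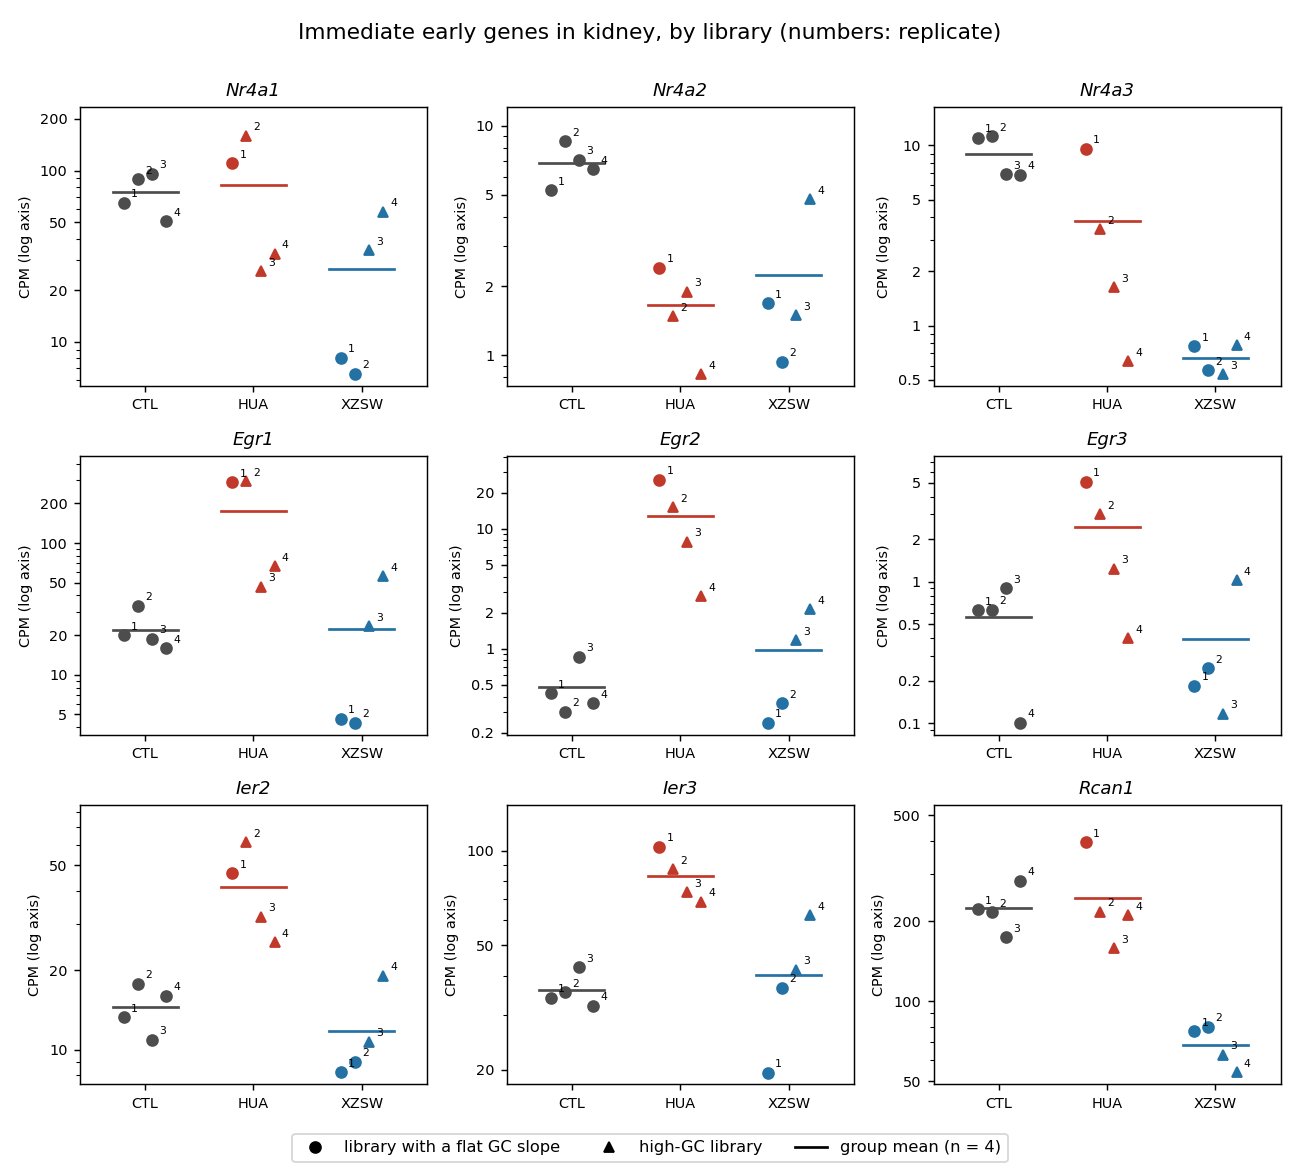
Level of each gene in CPM (log axis) in every library of CTL, HUA and XZSW, with replicate numbers beside the points, triangles for the 5 high-GC libraries and a line at the group mean (n = 4). HUA1 and HUA2 sit above HUA3 and HUA4 for 8 of the 9 genes, and XZSW4 is the highest XZSW library for 8 of 9.

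The spread within HUA and XZSW had a shared order. HUA1 was the highest HUA library for 6 genes and HUA2 for 3, and HUA4 was the lowest for 6 and HUA3 for 3. Both XZSW3 and XZSW4, the high-GC libraries of that group, stood above both XZSW1 and XZSW2 for 5 of 9. Among the 36 pairs of members, deviations of log2 CPM from the group means over the 12 libraries had a positive Pearson correlation for 31, with a median of 0.61 and a range of -0.14 to 0.97. The points share libraries and depth, and these are descriptions. Pairs of other genes were not computed, so whether the shared order is particular to the 9 genes was not tested. Nr4a1 and Egr1 were at 0.97, the highest. Nr4a1 and Egr2 were at 0.85, as were Egr1 and Ier2, and Egr2 and Ier3 were at 0.84. Rcan1 ran from -0.14 to 0.56 with the others, the highest being with Nr4a3.

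**Figure D3:**
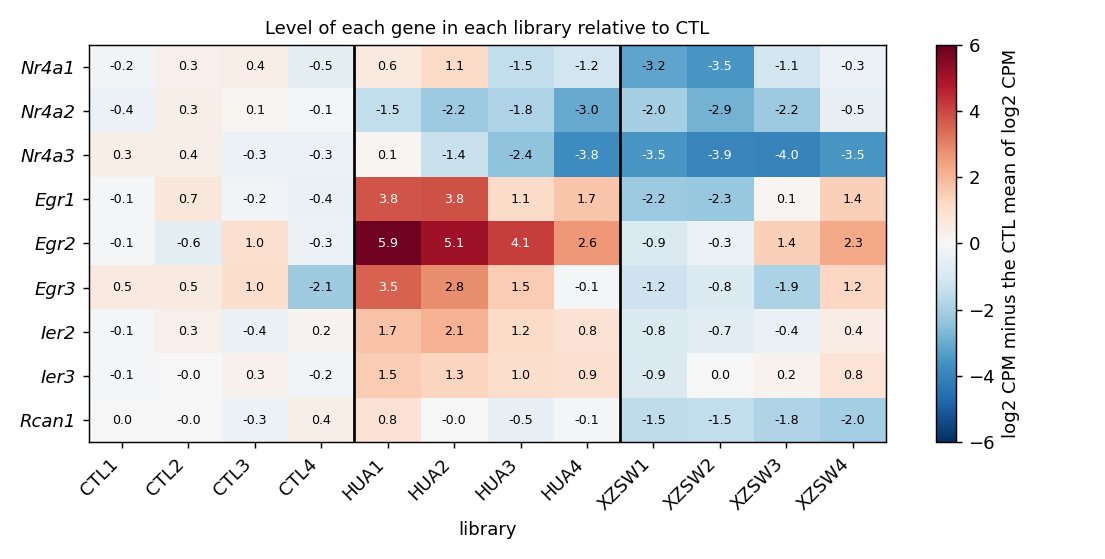
Level of each gene (rows) in each library (columns), as log2 CPM minus the CTL mean of log2 CPM (colour scale, with the value printed in each cell). Egr2 is above the CTL mean in all 4 HUA libraries, and Nr4a3 and Rcan1 are below it in all 4 XZSW libraries.

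Differences were also computed between libraries of 1 kind, as mean log2 CPM. Among the flat libraries (XZSW1 and XZSW2 against HUA1) Egr1 differed by -6.01 and among the high-GC libraries (XZSW3 and XZSW4 against HUA2, HUA3 and HUA4) by -1.43. Egr2 differed by -6.31 and -2.09 in that order, Ier2 by -2.44 and -1.36, Ier3 by -1.95 and -0.58, and Rcan1 by -2.33 and -1.73. Nr4a1 was at -3.93 and -0.21, and Nr4a2 changed sign, from -0.92 to 1.00. HUA against CTL within the flat libraries rests on HUA1 alone and was 3.78 for Egr1, 5.75 for Egr2 and -1.48 for Nr4a2. XZSW against CTL within the flat libraries was -2.23 for Egr1 and -3.33 for Nr4a1. Within the 5 high-GC libraries alone, edgeR called 0 of the 9 in XZSW against HUA, with 3 at an unadjusted p under 0.05 and 8 of the 9 values negative.

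For each member, the genes whose log2 CPM followed it most closely over the 12 libraries were taken by Pearson correlation, among tested genes whose highest group mean reached 2 FPKM. The values are a description, and the 12 points share libraries and groups. Egr1 was followed most closely by Fos (0.96), Btg2 (0.93) and Junb (0.92), all of the primary response list. Nr4a1 had Zfp36 (0.92), Emb (0.86) and Trdmt1 (0.85), and Egr2 had Phlda1 (0.93), Spry2 (0.93) and Stk17b (0.93). Ier2 had Plk2 (0.94), Dusp5 (0.94) and Tmem171 (0.93). Ier3 was nearest Trib1 (0.90), Jund (0.89) and Tspan8 (0.89). Egr3 reached 0.86 with Slc41a2, Nr4a2 0.95 with Nptn and Rpe, Nr4a3 0.96 with Tm9sf3, and Rcan1 0.93 with Irs2, the insulin receptor substrate.

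The wider primary response was counted over 46 other genes of that kind, chosen with earlier results known, of which 45 were tested. In HUA against CTL, 30 rose and 3 fell (Dusp1, Plk3 and Per1), beside 27.8% of all genes called in either direction. The median log2 change was 1.40, where all genes had 0.06. Socs3, the feedback inhibitor of cytokine signalling, had 1.18 ± 0.241 CPM in CTL and 83.5 ± 78.5 in HUA (SD, n = 4), a log2 change of 6.14 (SE 0.61, adjusted p = 4.07e-05 by edgeR). Klf6, a zinc finger factor, went from 40.7 ± 7.87 to 378 ± 206 CPM (adjusted p = 5.36e-05), and Cyr61, a matricellular protein of the YAP and SRF response, from 49.5 ± 26.4 to 531 ± 124 CPM (adjusted p = 4.72e-05). Fos rose from 7.33 ± 2.82 to 38.8 ± 28.3 CPM (adjusted p = 0.0354). Dusp1, the phosphatase that turns off MAP kinases, fell from 168 ± 27.9 to 76 ± 32.6 CPM (adjusted p = 0.0201).

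In XZSW against HUA, 32 of the 45 fell and 0 rose (0 also at an unadjusted p under 0.05, by DESeq2 and by limma). Of all genes, 15.4% were called in either direction. The median of the list was -1.95. Cyr61 was at 32.5 ± 6.22 CPM and Klf6 at 33.8 ± 7.6 CPM in XZSW, both falling, with adjusted p-values of 9.75e-05 and 0.00015. With only the 5 high-GC libraries, 6 of the 45 were called, where few of all genes were called too, as given at the end. In XZSW against CTL, 2 rose (Ier5l and Rrad) and 8 fell (Jun, Dusp1, Gadd45g, Csrnp1, Sik1, Ppp1r15a, Plk3 and Per1), beside 4.99% of all genes. That count of 10 was 2 without CTL2 or XZSW3, 3 without CTL1, 4 without CTL3 or XZSW1, 5 without CTL4 and 6 without XZSW2. It was 15 without HUA1. Without the high-GC libraries more of the list and more of all genes were called. Fos, at 8.07 ± 8.26 CPM in XZSW, had an adjusted p of 0.0662 by edgeR against HUA and was not called.

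**Figure D4:**
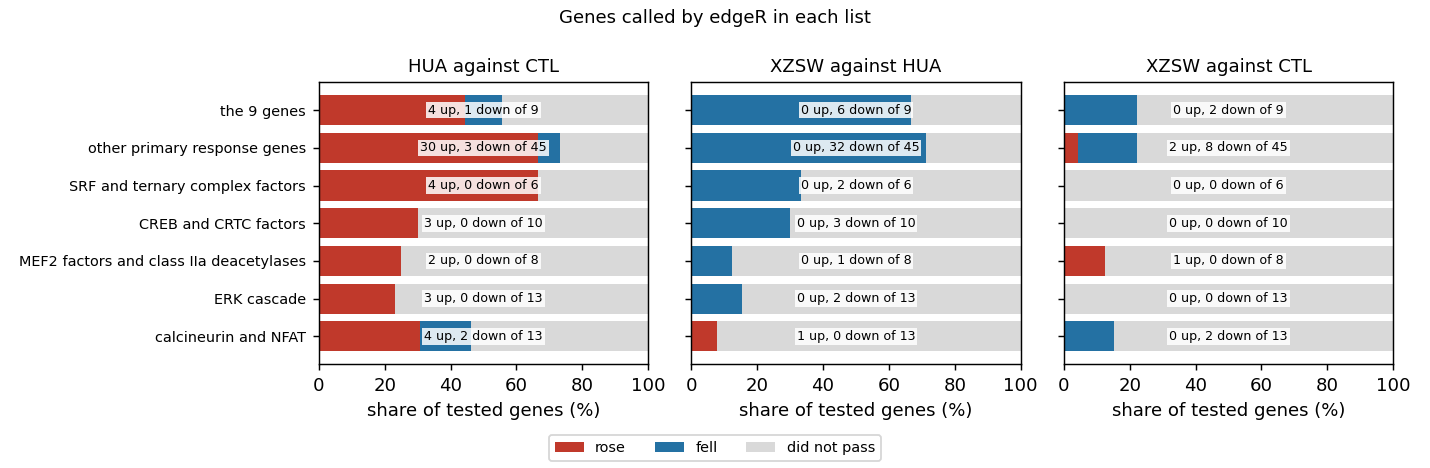
Share of tested genes (x axis, percent) in each list that rose, fell or did not pass by edgeR in the 3 comparisons, with the counts printed on the bars. The wider primary response list had 30 up in HUA against CTL and 32 down in XZSW against HUA, of 45.

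Genes of the routes known to act on such genes were counted likewise. Of all genes, 27.8% were called in HUA against CTL (14.9% higher) and 15.4% in XZSW against HUA (8.34% lower). Of 6 genes for the serum response factor and its partners, 4 rose in HUA against CTL (Srf, Elk3, Elk4 and Mkl1) and 2 fell in XZSW against HUA (Srf and Mkl1), with medians of 0.86 and -0.65. The latter count was 1 without HUA3, HUA4, XZSW1, XZSW2 or XZSW3. Srf, the serum response factor itself, was also counted in the wider primary response list. It had a log2 change of 0.90 (SE 0.21, adjusted p = 0.0069 by edgeR) and of -0.97 (SE 0.21, adjusted p = 0.00939). Of 10 CREB and CRTC genes, 3 rose in HUA (Creb5, Crtc3 and Crem) and 3 fell in XZSW against HUA (Creb5, Crem and Atf1), with medians of 0.32 and -0.14. Creb5 went from 0.529 ± 0.366 CPM in CTL to 14.2 ± 5.25 in HUA and 0.938 ± 0.371 in XZSW. The list for the ERK cascade also held Mapkapk2, a kinase chiefly of another MAP kinase route. Of the 13 genes listed, 3 rose in HUA (Nras, Mapkapk2 and Mapk3) and 2 fell in XZSW against HUA (Nras and Mapkapk2). The medians were 0.16 and -0.15. These shares were no higher than those of all genes called in either direction. They were above the 14.9% higher and 8.34% lower of all genes. Without HUA1 the counts were 7 and 4. Of 8 MEF2 factors and class IIa deacetylases, Hdac7 and Hdac4 rose in HUA, and Hdac7 fell in XZSW against HUA (adjusted p = 0.0492 by edgeR), with medians of 0.32 and -0.28. Both are deacetylases, and no MEF2 factor was called in these comparisons. These shares too were below those of all genes called in either direction, and above the 14.9% higher and 8.34% lower. The call in XZSW against HUA was lost on leaving out any 1 library other than HUA1 or HUA2, and the 2 calls in HUA against CTL were 1 without CTL2, CTL3, CTL4 or HUA3. All genes had medians of 0.06 and 0.01.

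The summed levels of injury, macrophage and fibroblast markers were higher in every HUA library than in any other. A few genes made up much of the sums, such as Spp1, with a mean of 12565 FPKM in HUA. By edgeR, 10 of 10 injury genes rose in HUA against CTL, beside 27.8% of all genes called. Of 9 macrophage genes 7 rose (not Adgre1 or Csf1r), and of 8 fibroblast and smooth muscle genes 5 rose (not Pdgfra, Myh11 or Dcn). Markers of tubular injury (10 genes) summed to 331 to 429 FPKM in CTL, 4832 to 30435 in HUA and 657 to 1128 in XZSW. Macrophage markers (9 genes) summed to 24.8 to 48.7 FPKM in CTL, 194 to 275 in HUA and 46.3 to 124 in XZSW. Fibroblast and smooth muscle markers (8 genes) summed to 15.7 to 22.1, 65.4 to 240.0 and 12.5 to 49.5 FPKM in that order. Those of neutrophils (7 genes) summed to 0.513 to 1.28, 1.46 to 14.1 and 1.02 to 4.81 FPKM, and of endothelium (7 genes) to 19.8 to 27.8, 18.4 to 46.1 and 24.3 to 44.3 FPKM. T and NK cell markers (8 genes) summed to 2.07 to 4.03, 1.07 to 3.8 and 2.43 to 9.24 FPKM, and B and plasma cell markers (6 genes) to 14.6 to 43.9, 4.71 to 17.9 and 19.5 to 42.2 FPKM. Adipocyte markers (5 genes) summed to 9.47 to 17.6 FPKM in CTL, 8.9 to 15.8 in HUA and 5.1 to 90.3 in XZSW, where the adipokine gene Adipoq reached 14 CPM. No marker of these lists was at 0 in every library. The part of these cell types in the members' values was not tested. In bulk tissue, more cells of a type and more RNA per cell cannot be told apart.

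Against all tested genes, the 9 had a median gene span of 6714 bp where 19746 genes with a model had 16462, a median of 2 exons in the longest transcript where all had 5, and a GC content of 54.4% where all had 49.4%. Exon length was 3509 bp against 3526. Scaling by library totals in place of TMM moved the median log2 change of all genes by 0.33, -0.17 and 0.16 in the 3 comparisons. It split the called genes into 5779 up and 1320 down in HUA against CTL, where TMM gave 2950 and 2538. In XZSW against HUA it gave 836 and 2714 where TMM gave 1402 and 1649, and in XZSW against CTL 1221 and 224 where TMM gave 538 and 449. The direction of no member changed under it.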

How the data were processed

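Kidney RNA of 12 samples, 4 each of CTL, HUA and XZSW, was used. Per the file headers, the deposited table gives raw counts and, beside them, FPKM values of the authors for every gene in each sample. Per the labels' protocols, libraries were strand-specific and RNA integrity numbers were over 7. The submitters' processing notes name cutadapt 1.9, HISAT2 2.2.1 and GRCm38. The counting tool is not given in the sources used here.

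Counts were filtered with filterByExpr and scaled with TMM factors of 0.856 to 1.15. The test was the quasi-likelihood F-test of edgeR 4.0.16 over 12 libraries, with Benjamini-Hochberg adjustment over 19772 genes and a threshold of 0.05. SEs are the log2 change divided by the square root of F. Replicates differed beyond counting error (chi-square per degree of freedom 25.8 to 453). Motifs were counted in RefSeq promoter windows. The script was tested on simulated data. The members and lists were chosen with earlier results of these data known. Named genes were the members, called genes of the lists and, for each member, the genes most alike. Alternatives were other filters, scalings, tests (DESeq2 1.42.0, limma 3.58.1) and libraries. R 4.3.3 and Python 3.11.15 were used.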

Additional observations from a re-analysis of the deposited data

Results flagged for a closer look

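Of 27 groups of 4 values checked, 1 stood out. Egr3 in XZSW4 was at 1.03 CPM, where the other XZSW libraries were at 0.117 to 0.245 CPM, and the gap to the next value was 0.86 of the whole range and above Dixon's critical value for 4 samples. Chance alone flags about 1 in 20 such groups.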

How the results depend on the processing

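In XZSW against CTL, 987 genes were called. The count was 529 with no filter beyond a count above 0, 2417 with DESeq2, 1744 with limma on log2(FPKM + 0.1), 2625 with the 8 libraries compared, 1750 with the kind of library as a term and 2841 without the 5 high-GC libraries, which leaves HUA1 alone in HUA and assumes that it varies like the other groups. Leaving out 1 library gave 133 (without CTL2) to 1596 (without HUA1). In XZSW against HUA, of 3051 genes, the 8 libraries gave 1439, only the high-GC libraries 41, and leaving out 1 library 1711 (HUA3) to 3817 (HUA1); in HUA against CTL the range was 4208 to 6347. Of the members called in XZSW against HUA, 6, the 8 libraries gave 3, the high-GC libraries 0 by edgeR (3 at an unadjusted p under 0.05) and leaving out 1 library 3 to 7. In XZSW against CTL 5 were called without the high-GC libraries.

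Members not called changed sign as follows, and the cause was not tested. They were Egr1 in XZSW against CTL (-0.22 and -0.46 with limma at pseudocounts of 1 and 0.1, -0.05 with the replicate block, -0.76 with the kind of library, -2.27, then called, without the high-GC libraries and -1.03 to 0.35 leaving out 1 library), Nr4a1 in HUA against CTL (-0.45 with the kind of library and -0.38 to 0.46 leaving out 1 library), Ier3 in XZSW against CTL (-0.02, -0.33 without the high-GC libraries and -0.14 to 0.38), Nr4a3 in HUA against CTL (0.09 without the high-GC libraries), Nr4a2 in XZSW against HUA (-0.85 without them and -0.27 to 0.68), Egr2 in XZSW against CTL (-0.67 without them) and Rcan1 in HUA against CTL (-0.16 to 0.33). Egr1 in HUA against CTL was not called with the kind of library as a term (2.53). In the alternatives run, no other member's direction changed.

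The samples share only a number: same-numbered deviations correlated at -0.0457 to 0.174, not all above 0.1, the level set for pairing. As a hint from the data and not the design, 15 of 24 library and group pairs matched best with their own number, where unrelated numbers would give 6. The replicate block called 5466, 3076 and 813 genes and 6, 5 and 2 members in the 3 comparisons, HUA against CTL first and XZSW against CTL last. Under it Egr1 in XZSW against HUA was not called (-2.99) and Nr4a3 in HUA against CTL was (-1.64). At this depth, Egr2 and Egr3 in CTL rest on 99 and 114 counts.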
